A study of Mus musculus with 8 samples.

Results

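The interferon response genes described here are 42 genes that cells switch on when interferons bind their receptors. They were chosen by name, from a list of classical interferon-stimulated genes, with earlier results of these data known. Shares of these genes set beside shares of all rows are therefore descriptions, not tests. Of the 42, 38 had a row of their own on the array, out of 19938 genes with such a row. Isg15, Igtp and Gbp2 were represented by rows that also carry another gene's symbol and Ifi44 had no row, so these 4 genes are not analysed here.

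Expression was measured on 8 arrays (Affymetrix Mouse Gene 1.0 ST), 2 for each of 4 groups: KO LSK, Het LSK, KO GMP and Het GMP. LSK cells are the lineage-negative, Sca-1-positive, Kit-positive bone marrow fraction that contains the stem cells and early multipotent progenitors of blood, and GMP cells are progenitors of granulocytes and macrophages. KO mice were Vav1-iCre x Cbfb(F/F), with both alleles of Cbfb floxed, and Het mice were Vav1-iCre x Cbfb(F/+), with 1 floxed allele and 1 intact allele. Cbfb encodes the subunit shared by the RUNX transcription factors. All 4 groups carry the Vav1-iCre transgene, which is active in blood cells generally, and no mouse without Cre or without a floxed allele was measured, so Het mice stand as the control. The mice were 7 weeks old, on a C57BL6 background (12 backcross generations), and each sample held about 200000 sorted cells. Per the design text, the cells of each genotype came from 2 mice, but the labels do not say which LSK array and which GMP array share a mouse. They call the replicates biological and name no mouse, so the p-values below measure the spread between these arrays.

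Type I interferons act through a receptor made of the Ifnar1 and Ifnar2 chains and interferon gamma through Ifngr1 and Ifngr2. Kinases of the JAK family on these receptors activate STAT proteins, and a complex that includes Stat2 and Irf9 binds the interferon-stimulated response element in the promoters of target genes. The gamma-activated site is another such element. The products sense or degrade viral nucleic acid, block viral replication, restrict intracellular microbes or load peptides for T cells. In bone marrow, hematopoietic stem cells are known to express some of these genes without infection, and interferons are known to push such cells out of quiescence.

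Promoters are shown for the 5 genes with the largest called changes between KO and Het among those in the RefSeq promoter table, so that the changes below can be set beside the sequence. Called means an adjusted p under 0.05 in limma. Each window runs from 250 bases before to 50 bases after the start of transcription in GRCm38.p6, written 5′ to 3′ on the gene's strand, with GAAANNGAAA on either strand in capitals, the core letters of the response element that IRF proteins and the Stat2 and Irf9 complex bind. The windows lie at chr19:34583279-34583578 (plus strand, Ifit3), chr3:142559794-142560093 (plus strand, the first of 2 listed starts of Gbp3), chr5:114896684-114896983 (plus strand, Oasl2), chr12:26456403-26456702 (minus strand, Rsad2) and chr5:120777610-120777909 (minus strand, Oas3).
Ifit3: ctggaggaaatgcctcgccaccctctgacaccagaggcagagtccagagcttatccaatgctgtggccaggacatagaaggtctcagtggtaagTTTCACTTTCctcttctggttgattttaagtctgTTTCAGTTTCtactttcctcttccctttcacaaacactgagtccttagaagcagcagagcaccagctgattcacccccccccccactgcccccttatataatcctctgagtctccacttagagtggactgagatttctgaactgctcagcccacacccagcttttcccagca
Gbp3: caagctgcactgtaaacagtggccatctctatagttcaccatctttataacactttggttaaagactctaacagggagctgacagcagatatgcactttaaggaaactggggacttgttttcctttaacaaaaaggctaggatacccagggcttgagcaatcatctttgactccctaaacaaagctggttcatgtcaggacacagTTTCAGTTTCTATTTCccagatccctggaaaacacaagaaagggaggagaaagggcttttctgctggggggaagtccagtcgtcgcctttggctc
Oasl2: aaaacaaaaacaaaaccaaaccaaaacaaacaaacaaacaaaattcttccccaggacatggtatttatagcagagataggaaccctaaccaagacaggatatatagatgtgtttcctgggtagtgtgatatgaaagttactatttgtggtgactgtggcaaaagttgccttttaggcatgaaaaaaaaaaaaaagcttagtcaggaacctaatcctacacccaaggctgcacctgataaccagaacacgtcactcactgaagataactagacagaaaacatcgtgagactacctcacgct
Rsad2: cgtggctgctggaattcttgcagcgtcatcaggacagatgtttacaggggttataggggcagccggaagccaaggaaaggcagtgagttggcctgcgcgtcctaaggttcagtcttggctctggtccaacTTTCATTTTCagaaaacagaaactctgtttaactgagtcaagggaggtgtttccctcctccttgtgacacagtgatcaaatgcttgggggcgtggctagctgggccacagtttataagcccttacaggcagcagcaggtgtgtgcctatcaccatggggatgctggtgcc
Oas3: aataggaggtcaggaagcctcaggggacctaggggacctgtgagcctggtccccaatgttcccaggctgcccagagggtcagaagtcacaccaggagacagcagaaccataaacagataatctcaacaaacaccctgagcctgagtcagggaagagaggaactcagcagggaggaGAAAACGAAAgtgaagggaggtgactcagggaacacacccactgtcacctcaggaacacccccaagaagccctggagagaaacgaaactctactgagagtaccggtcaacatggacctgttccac

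Ifit3, which fell in KO LSK, holds the letters at 2 places, whose first bases are at -156 and -122 from the start. Gbp3, which fell in KO GMP, holds 2 overlapping copies at -45 and -39. Among the genes that rose in KO GMP, Rsad2 holds 1 copy at -120 and Oas3 holds 1 at -75, while Oasl2 holds none in this window. Promoters were listed for 28 of the 38 genes, and 11 of the 28 (39.3%) hold GAAANNGAAA, against 943 of all 27025 promoters of that length (3.49%). TTCNNNGAA, the letters of the gamma-activated site, stood in 7 of the 28 (25%), against 8.47% of all promoters, and in 1 gene it overlapped GAAANNGAAA. TGTGGT, the letters that RUNX proteins bind, stood in 4 of the 28 (14.3%), against 16.9% of all promoters. Among the 5 listed genes that rose in KO GMP, 3 hold GAAANNGAAA. All motifs were searched on both strands. A match is a description of the letters, not a bound site, and the lack of one says only that the letters are not in this window.

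Cbfb itself, the targeted gene, had log2 levels of 6.93 and 6.98 in KO LSK, against 7.56 and 7.55 in Het LSK, and 6.48 and 6.96 in KO GMP, against 7.53 and 7.65 in Het GMP. It was lower in KO on every array, by -0.60 in LSK (adjusted p = 0.0557) and by -0.86 in GMP (adjusted p = 0.0130), and the sources do not say whether its probes lie in the floxed part. Correlations between arrays over all rows were 0.990 to 0.995 within groups and 0.955 to 0.983 between groups, and array medians were 4.92 to 5.09. The mean over 8 GMP markers such as Elane and Mpo was 10.6 to 10.8 in KO GMP and 10.8 to 10.9 in Het GMP, against 8.40 to 8.79 in KO LSK and 8.57 to 8.87 in Het LSK. Within LSK this list went both ways, with Mpo lower in KO (-1.19, limma adjusted p = 0.00477) and Fcgr3 higher (1.07, adjusted p = 0.0465). The mean over 8 LSK markers was 7.51 to 7.99 in KO LSK and 8.61 to 8.92 in Het LSK, and 6.56 to 6.76 in KO GMP and 6.04 to 6.10 in Het GMP. Kit and Cd34 are in both lists and were called lower in GMP than in LSK in both genotypes. Of the 8 LSK markers, Flt3, Mecom, Procr and Hlf were called lower in KO LSK than in Het LSK, and 0 were called higher. The stem cell markers Mecom and Procr lay below the array median on both KO LSK arrays. Kit, Meis1 and Mycn were above 0 for KO minus Het in LSK, at 0.44, 0.60 and 0.30, without passing. Exact permutation of 2 arrays against 2 cannot give a p below 0.333, so the tests are limma's, with Benjamini-Hochberg adjustment over 21789 rows.

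As a group, the 38 genes were highest in Het LSK and lowest in Het GMP, with both KO groups between. Their mean log2 level was 7.15 and 6.93 on the KO LSK arrays, against 7.42 and 7.20 on the Het LSK arrays. In GMP it was 6.65 and 6.54 on the KO arrays, against 6.34 and 6.17 on the Het arrays. The arrays of KO and Het did not overlap in either cell type. In LSK, though, the gap between KO replicate 1 and Het replicate 2 was small, at 7.15 against 7.20. The medians of these 2 arrays were 5.02 and 5.09, so the separation in LSK depends on the scaling of the arrays. Between 29 and 35 of the 38 genes lay above the median row on each array. Differences between KO and Het had opposite signs in the 2 cell types for most genes: 28 of 38 (73.7%) were below 0 in LSK and above 0 in GMP, against 17.6% of all rows. Of the others, 6 were below 0 in both cell types, 4 were above 0 in both, and 0 showed the opposite order. Among the 28, some LSK values were close to 0, such as -5.6e-05 in Parp14, -0.007 in Eif2ak2 and -0.014 in Nmi. Subtracting array medians moved differences by 0.087 in LSK and -0.051 in GMP, so the count of 28 depends on the scaling of the arrays. Called changes were found for 13 of the 38 genes, 5 in LSK and 8 in GMP, where 11.1% of all 19938 genes were called in either cell type. Of the 38 genes 0 were called in both cell types, where 2.9% of all 19938 genes were, and Gbp3, called in GMP, had an adjusted p of 0.0546 in LSK. Over all 19938 genes, 37.1% of those called in LSK were also called in GMP. Of those called in GMP, 47% were also called in LSK. The 5 and 8 calls were not tested against these shares.

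**Figure D1:**
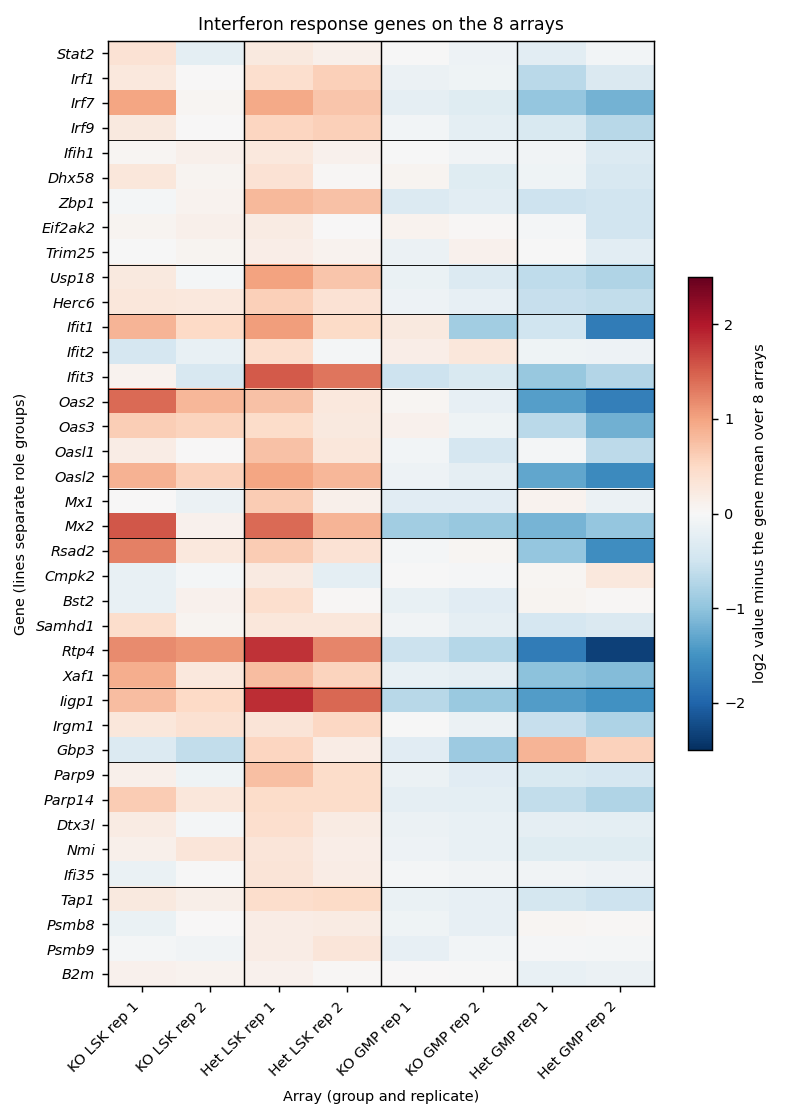
Heat map of the 38 interferon response genes (rows, grouped by role) on the 8 arrays (columns, by group and replicate), coloured by the log2 level minus the gene's mean over the 8 arrays. Most rows are red in Het LSK and blue in Het GMP, and Rtp4, Iigp1, Ifit3, Oasl2 and Oas2 carry the strongest colours.

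The genes also moved together between the 2 arrays of a group. Replicate 1 was above replicate 2 for 27 of the 38 genes in KO LSK, for 31 in Het LSK, for 31 in KO GMP and for 30 in Het GMP, while the share among all rows was at most 51.2% in any group. The median absolute gap between the 2 arrays was 0.24 in KO LSK, 0.21 in Het LSK, 0.11 in KO GMP and 0.20 in Het GMP. With its sign, the median of replicate 1 minus replicate 2 was 0.19 in KO LSK and 0.21 in Het LSK. In GMP it was 0.08 in KO and 0.09 in Het. Counts of the 38 genes on 1 side of 0, here and below, are therefore not counts of independent results. The widest single gaps were in Mx2, at 1.45 in KO LSK, and in Ifit1, at 1.13 in KO GMP and 1.25 in Het GMP. Leaving out 1 array changed several calls given below. The IFIT, OAS and GBP families hold similar copies, whose RNA may reach the same probes, which was not tested.

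In LSK cells, 5 of the 38 genes fell in KO and 0 rose, where 4.71% of all rows were called lower and 3.02% called higher. The genes that fell were Ifit3, Iigp1, Usp18, Zbp1 and Parp9, which belong to 5 different role groups. The median log2 difference over the 38 genes was -0.25, beside 0.01 over all rows, and 34 of the 38 (89.5%) were below 0, against 48.2% of all rows. The median shift between the 2 arrays of 1 group was nearly as large, at 0.19 in KO LSK and 0.21 in Het LSK. The samples are sorted populations, so fewer cells that express a gene and less of its RNA per cell cannot be told apart.

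Ifit3, whose product binds viral RNA together with other IFIT proteins, had log2 levels of 3.39 and 2.90 in KO LSK, against 4.83 and 4.64 in Het LSK. Both KO arrays lay far below both Het arrays. The log2 difference was -1.60 ± 0.18 (limma's SE, n = 2 arrays a group) (limma adjusted p = 0.000643). Ifit3 was dim in KO LSK, where 24.5% and 14.7% of the 19938 genes lay lower on the 2 arrays, so its size is uncertain and no fold is given. Iigp1, an immunity-related GTPase that attacks the vacuoles of intracellular microbes, had log2 levels of 6.09 and 5.82 in KO LSK, against 7.16 and 6.75 in Het LSK. Its groups did not overlap, and the interval of the log2 difference ran from -1.39 to -0.61 (SE 0.17, adjusted p = 0.00774). Zbp1, a sensor of Z-form nucleic acid that can start necroptosis, had log2 levels of 5.58 and 5.70 in KO LSK, against 6.44 and 6.35 in Het LSK. The replicates of Zbp1 lay close together, and the log2 difference was -0.75 ± 0.12 (adjusted p = 0.00412).

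Usp18, the protease that removes ISG15 from proteins and damps signalling at the type I receptor, had log2 levels of 6.34 and 6.05 in KO LSK, against 7.12 and 6.79 in Het LSK. Its log2 difference was -0.76 ± 0.16 (adjusted p = 0.0199), with no overlap of the groups. Parp9, which works with the ubiquitin ligase Dtx3l, had log2 levels of 7.08 and 6.83 in KO LSK, against 7.70 and 7.41 in Het LSK. The groups were separate, and the log2 difference of -0.60 ± 0.14 had an adjusted p of 0.0385. Gbp3, a guanylate-binding protein, lay just outside the threshold in LSK: its log2 levels were 6.23 and 5.97 in KO LSK, against 7.12 and 6.76 in Het LSK, with a log2 difference of -0.84 and an adjusted p of 0.0546. Gbp3 was called in LSK under 7 alternatives, with adjusted p from 0.00771 (replicate block) to 0.0491 (only the groups compared). Without Het LSK replicate 1 the adjusted p became 0.0569 for Iigp1, 0.135 for Usp18 and 0.212 for Parp9, and the median over the 38 genes became -0.10. Without KO LSK replicate 2 it became 0.0873 for Usp18 and 0.145 for Parp9, and the median -0.16; without any 1 GMP array that of Parp9 was 0.0619 to 0.0723. Parp9 was also not called with each array's median subtracted (0.0648) or after quantile normalization (0.0510), whereas Zbp1 was called under all alternatives but a 2-fold minimum. Ifit3 was called under every alternative that tested it, and the filter on dim rows left it out.

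The other 33 genes were not called in LSK. Values were -0.43 to -0.12 for the transcription factors (Stat2, Irf1, Irf7 and Irf9), and the 4 sensors other than Zbp1 lay between -0.09 and -0.01. The OAS family, whose synthetases activate RNase L, was split: Oas2 had log2 levels of 8.54 and 7.95 in KO LSK, against 7.85 and 7.38 in Het LSK, a difference of 0.63 that did not pass (adjusted p = 0.171), while Oasl1 and Oasl2 were at -0.41 and -0.19. The 4 antigen processing genes (Tap1, Psmb8, Psmb9 and B2m) lay between -0.31 and 0.04, and the 6 other antiviral effectors, Rsad2 and Rtp4 among them, between -0.38 and 0.26.

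Markers of other cell types moved with KO in LSK. The mean log2 level over 6 B cell markers was 4.50 to 4.84 in KO LSK, against 6.83 to 7.29 in Het LSK, and 5 of the 6 fell. Over 5 plasmacytoid dendritic cell markers it was 4.55 to 4.68 in KO LSK, against 5.68 to 5.82 in Het LSK, with 3 of the 5 (Ccr9, Cox6a2 and Ly6d) lower. Siglech, which defines plasmacytoid dendritic cells, lay below the array median on every array of the 4 groups. Over 10 monocyte, macrophage and dendritic cell markers the mean was 4.85 to 4.86 in KO LSK, against 5.79 to 5.94 in Het LSK, with 4 of the 10 lower, and Itgax, Adgre1 and Ms4a7 lay below the array median in all 4 groups. Of 9 T and NK cell markers, 2 fell and 8 lay below the array median on both KO LSK arrays. Over 7 megakaryocyte and platelet markers the mean was 7.62 to 7.79 in KO LSK, against 6.60 to 6.61 in Het LSK. This list went both ways, with Itga2b, Gp5 and Treml1 higher in KO by 2.68 to 3.04, Pf4 lower (-1.25, adjusted p = 0.00940) and Vwf at -0.76 without passing. Over 4 erythroid markers the mean was 4.77 to 4.85 in KO LSK, against 5.88 to 6.11 in Het LSK, and Car1 (-3.51, adjusted p = 0.00114) and Klf1 (-0.69, adjusted p = 0.0211) fell. Flt3, a receptor of multipotent and lymphoid progenitors, had log2 levels of 7.09 and 6.56 in KO LSK, against 10.2 and 10.3 in Het LSK. The part of these shifts in the values of the interferon response genes was not tested.

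In GMP cells the direction was the other way for most genes. In KO, 7 of the 38 genes rose (Oas2, Rtp4, Oasl2, Rsad2, Oas3, Xaf1 and Irgm1) and 1 fell (Gbp3), where 3.45% of all rows were called higher and 2.57% called lower. The OAS family had 3 of its 4 measured genes higher in KO. The median log2 difference over the 38 genes was 0.26, beside -0.02 over all rows, and 32 of the 38 were above 0.

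Oas2 had log2 levels of 7.16 and 6.92 in KO GMP, against 5.74 and 5.40 in Het GMP. The KO arrays were more than 1 log2 unit above the Het arrays, and the difference was 1.47 ± 0.23, which is 2.76-fold (limma adjusted p = 0.00579). Oasl2, an OAS-like synthetase, had log2 levels of 6.82 and 6.72 in KO GMP, against 5.65 and 5.35 in Het GMP. The groups were separate, with a log2 difference of 1.27 ± 0.15 (2.41-fold, adjusted p = 0.00133), and this call was kept under all alternatives, a 2-fold minimum included. Oas3 had log2 levels of 5.87 and 5.67 in KO GMP, against 5.11 and 4.58 in Het GMP. Its Het arrays differed more than its KO arrays, and the log2 difference was 0.93 ± 0.18 (adjusted p = 0.0166). Oasl1, which in mice is known to restrain the translation of Irf7, was at 0.11, with groups that overlapped.

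Rtp4, a receptor-transporting protein that interferon induces strongly, had log2 levels of 6.65 and 6.48 in KO GMP, against 5.45 and 4.87 in Het GMP. Both KO arrays were above both Het arrays, with a log2 difference of 1.41 ± 0.23 (2.65-fold, adjusted p = 0.00647). Rsad2, which encodes viperin, had log2 levels of 5.35 and 5.44 in KO GMP, against 4.43 and 3.83 in Het GMP. The groups did not overlap, and the log2 difference of 1.26 ± 0.31 was close to the threshold (adjusted p = 0.0460). Both Het GMP values of Rsad2 lay below the medians of their arrays, 4.93 and 4.92. Cmpk2, a mitochondrial nucleotide kinase, did not pass in GMP, with log2 levels of 4.97 and 4.95 in KO GMP, against 5.03 and 5.25 in Het GMP, where the Het arrays were slightly the higher. Xaf1, a protein that favours apoptosis, had log2 levels of 6.64 and 6.61 in KO GMP, against 5.79 and 5.75 in Het GMP. Its replicates lay close together in both groups, and the log2 difference was 0.85 ± 0.19 (adjusted p = 0.0357).

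Among the GTPases, Irgm1, which regulates the other immunity-related GTPases, had log2 levels of 7.66 and 7.54 in KO GMP, against 7.10 and 6.91 in Het GMP. It rose by 0.60 ± 0.13 on the log2 scale (adjusted p = 0.0304). Gbp3 went the other way, with log2 levels of 6.29 and 5.68 in KO GMP, against 7.44 and 7.15 in Het GMP. The difference was -1.31 ± 0.22, or 2.48-fold lower in KO (adjusted p = 0.00799), and Gbp3 was the 1 called gene of the 38 that was lower in KO GMP. Iigp1 lay just outside the threshold in GMP, with log2 levels of 4.64 and 4.39 in KO GMP, against 3.93 and 3.81 in Het GMP (difference 0.64, adjusted p = 0.0684).

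Leaving out 1 GMP array ended all GMP calls except that of Oasl2 in at least 1 case. Without Het GMP replicate 2 the adjusted p became 0.0614 for Oas2, 0.0533 for Rtp4, 0.103 for Oas3, 0.271 for Rsad2, 0.177 for Xaf1 and 0.204 for Irgm1. Without KO GMP replicate 1 it became 0.0518 for Rtp4, 0.123 for Oas3, 0.164 for Rsad2, 0.170 for Xaf1 and 0.196 for Irgm1. Without KO GMP replicate 2 it became 0.0616 for Oas3, 0.211 for Rsad2, 0.164 for Xaf1, 0.110 for Irgm1 and 0.0569 for Gbp3. Without Het GMP replicate 1 it became 0.0746 for Rsad2, 0.172 for Xaf1, 0.0821 for Irgm1 and 0.0839 for Gbp3, and without either Het LSK array it was 0.0711 for Rsad2 and 0.0551 for Xaf1. Quantile normalization put these 2 genes at 0.0614 and 0.0639.

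**Figure D2:**
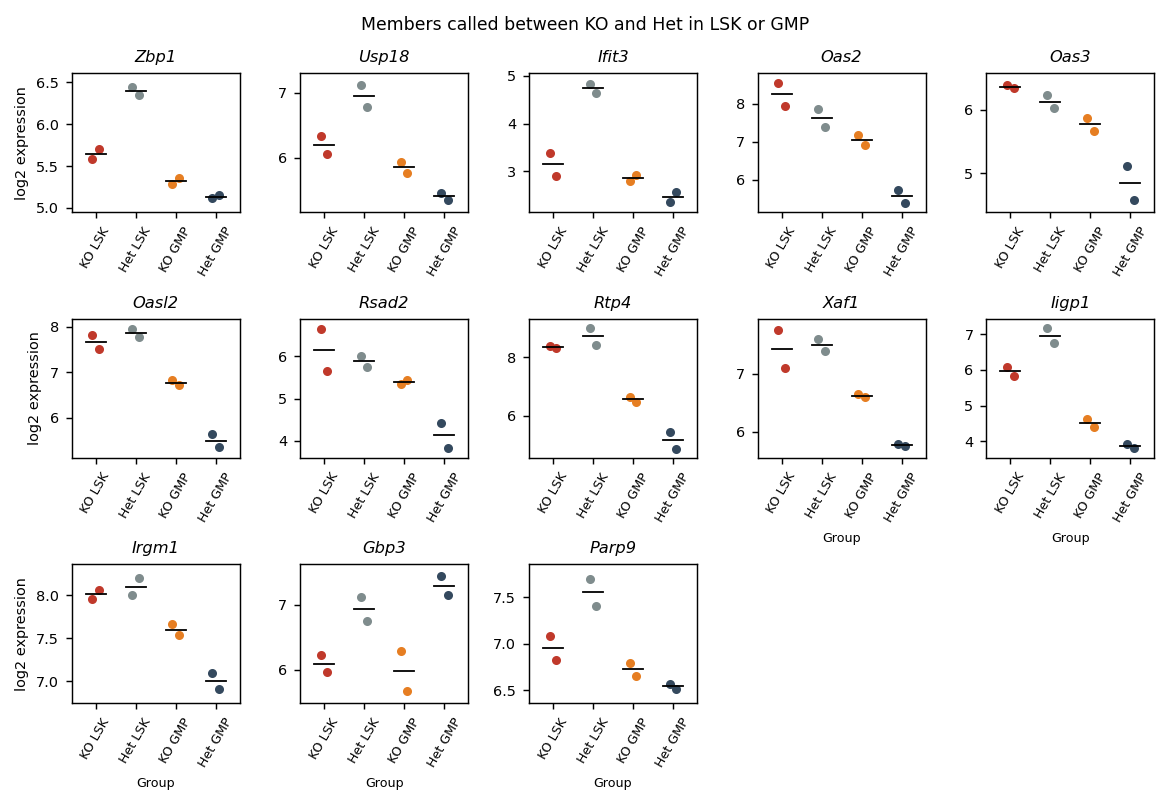
Log2 expression (vertical axes, each with its own range) of the 13 genes called between KO and Het in LSK or GMP, with 1 point per array and a line at the mean of the 2 arrays of a group. Ifit3, Iigp1, Usp18, Zbp1 and Parp9 are lower in KO LSK than in Het LSK, and 7 genes are higher in KO GMP than in Het GMP, while Gbp3 is lower.

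The other 30 genes were not called in GMP. Irf7, the factor that amplifies type I interferon production, had log2 levels of 5.58 and 5.50 in KO GMP, against 4.83 and 4.61 in Het GMP. Its groups were separate, with a difference of 0.82 that did not pass (adjusted p = 0.128), and the transcription factors together lay between 0.10 and 0.82. Ifit1, the IFIT protein that binds viral RNA caps, had log2 levels of 5.12 and 3.99 in KO GMP, against 4.38 and 3.13 in Het GMP. Its groups overlapped, and the difference of 0.80 ± 0.44 did not pass (adjusted p = 0.425). Herc6, the main ISG15 ligase in mice, had log2 levels of 6.39 and 6.32 in KO GMP, against 5.95 and 5.91 in Het GMP (difference 0.42, adjusted p = 0.0875). The 5 sensors and their partners lay between 0.11 and 0.32, the PARP and Dtx3l group with Nmi and Ifi35 between 0.04 and 0.44, and the antigen processing genes between -0.19 and 0.30.

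Markers of other cell types moved with KO in GMP as well. The mean log2 level over 7 megakaryocyte and platelet markers was 8.51 to 8.82 in KO GMP, against 5.33 to 5.69 in Het GMP, and all 7 rose. Over 10 monocyte, macrophage and dendritic cell markers it was 4.34 to 4.77 in KO GMP, against 5.82 to 5.99 in Het GMP, and 7 of the 10 fell. The B cell markers were at 4.21 to 4.24 in KO GMP and 4.55 in Het GMP, the plasmacytoid dendritic cell markers at 4.35 to 4.46 in KO GMP and 4.46 to 4.54 in Het GMP, and 0 genes of either list were called. T and NK cell markers were at 3.96 to 4.03 in KO GMP and 4.07 to 4.18 in Het GMP, and 4 erythroid markers at 4.97 to 5.06 in KO GMP and 5.24 to 5.62 in Het GMP. Of the 9 T and NK cell markers, 1 was called in GMP: Nkg7 was lower in KO (-1.41, limma adjusted p = 0.00283). The erythroid list went both ways in GMP, with Car1 lower in KO (-2.75, adjusted p = 0.00507) and Epor higher (0.92, adjusted p = 0.00403). Of the 8 LSK markers, Meis1 (3.11, limma adjusted p = 8.2e-05) and Mycn (1.69, adjusted p = 0.0118) rose in KO GMP. The other 6 were not called, with Flt3 at -0.90. The part of these shifts in the values above was not tested.

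Whether the effect of KO differed between the cell types was tested directly, as the difference in GMP minus the difference in LSK. Of the 38 genes, 6 were called higher (Ifit3, Rtp4, Iigp1, Oasl2, Usp18 and Zbp1) and 0 lower, where 1.69% of all rows were called higher and 0.601% lower. The median over the 38 genes was 0.54 on the log2 scale, beside -0.02 over all rows, and 35 of the 38 were above 0. In these 6 genes the difference between KO and Het was below 0 in LSK and above 0 in GMP.

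Ifit3 showed the largest such difference, 1.99 ± 0.25 (limma adjusted p = 0.00579). Its log2 levels in GMP were 2.78 and 2.92 in KO, against 2.35 and 2.57 in Het, near the low end of the array, so the GMP side of this contrast rests on a dim signal. For Rtp4 the difference was 1.79 ± 0.32 (adjusted p = 0.0252), from LSK log2 levels of 8.37 and 8.30 in KO, against 9.01 and 8.42 in Het, and the GMP values above. Iigp1 gave 1.64 ± 0.24 (adjusted p = 0.0104), with GMP levels below the array median on every GMP array. Oasl2 gave 1.46 ± 0.22 (adjusted p = 0.0104), with LSK log2 levels of 7.81 and 7.52 in KO, against 7.94 and 7.78 in Het. For Rtp4 and Oasl2 the larger of the 2 differences was the one in GMP, and for Ifit3, Iigp1, Usp18 and Zbp1 it was the one in LSK.

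Usp18 gave 1.20 ± 0.22 (adjusted p = 0.0284), with GMP log2 levels of 5.94 and 5.77 in KO, against 5.46 and 5.35 in Het. Zbp1 gave 0.94 ± 0.16 (adjusted p = 0.0211), with GMP log2 levels of 5.28 and 5.36 in KO, against 5.11 and 5.15 in Het. In both genes the KO arrays were above the Het arrays in GMP, by less than they were below them in LSK. Gbp3, at -0.47, was 1 of the 3 genes below 0, beside Bst2, or tetherin, at -0.02 and Cmpk2 at -0.08, and its difference between the cell types did not pass (adjusted p = 0.614). Iigp1 was not called without Het GMP replicate 2 (0.0558). Leaving out 1 array ended the call of Rtp4 for all arrays but KO LSK replicate 1, Het LSK replicate 2 and Het GMP replicate 1 (0.0625 to 0.0934), that of Usp18 for all but KO LSK replicate 1 and Het LSK replicate 2 (0.0655 to 0.118) and that of Zbp1 for all but the KO LSK arrays (0.0596 to 0.101). Ifit3 and Oasl2 kept their calls whichever array was left out, and Zbp1 was not called with array medians subtracted (0.0559) or after quantile normalization (0.0520). Subtracting each array's median moved every difference in this contrast by -0.14 and put the median over the 38 genes at 0.41.

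**Figure D3:**
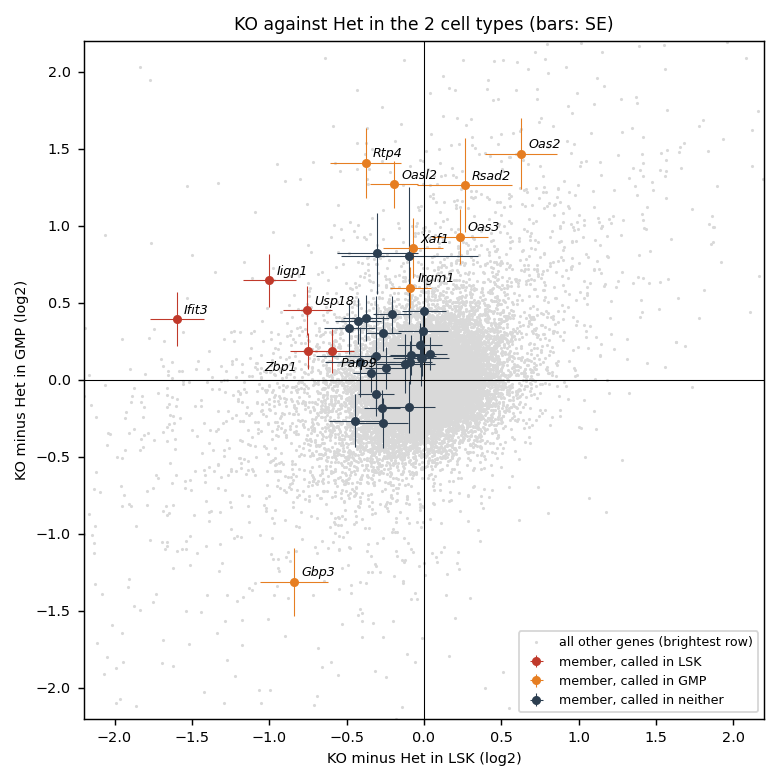
Log2 difference of KO minus Het in LSK (horizontal axis) and in GMP (vertical axis) for the 38 genes, with limma's SE as bars, over all other genes in grey. The upper left part holds 28 of the 38 genes, and Gbp3, at -0.84 in LSK and -1.31 in GMP, lies apart from the rest.

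The step from LSK to GMP was compared within each genotype. In Het mice, 24 of the 38 genes were lower in GMP than in LSK and 0 were higher, where 9.6% of all rows were called lower and 7.9% called higher. In KO mice, 7 of the 38 were lower and 0 higher, where 2.39% of all rows were called lower and 3.66% higher. All 7 were also among the 24 of Het. The median log2 difference was -0.31 in KO and -0.98 in Het, beside -0.02 and 0.01 over all rows. These 2 contrasts use the same arrays as the comparisons of KO and Het above, so they restate the same levels in another direction and add no independent evidence.

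Rtp4 differed most: GMP minus LSK was -1.77 ± 0.23 in KO (limma adjusted p = 0.00231) and -3.56 ± 0.23 in Het (adjusted p = 2.22e-05), so its level in GMP was 3.41-fold lower in KO and 11.8-fold lower in Het. Iigp1 was at -1.44 in KO (adjusted p = 0.00153) and -3.09 in Het (adjusted p = 1.3e-05). Iigp1 lay below the array median on every GMP array, so the size of its falls is uncertain. Oasl2 was at -0.90 in KO (adjusted p = 0.00994) and -2.36 in Het (adjusted p = 2.37e-05). For each of these 3 genes the fall in KO was smaller than in Het, and the test of that difference is the one given above for the effect of KO in GMP minus LSK. Ifit3 was at -0.29 in KO (adjusted p = 0.431) and -2.28 in Het (adjusted p = 5.01e-05). Oas2 was at -1.20 in KO (adjusted p = 0.0182) and -2.04 in Het (adjusted p = 0.00041), a difference between genotypes that did not pass (0.84, adjusted p = 0.307).

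Mx2, a dynamin-like GTPase against viruses, was lower in GMP than in LSK in both genotypes. Its log2 levels were 2.79 and 2.71 in KO GMP and 5.20 and 3.75 in KO LSK, against 2.49 and 2.69 in Het GMP and 5.06 and 4.50 in Het LSK. GMP was below LSK on every array of both genotypes, by -1.73 ± 0.39 in KO (adjusted p = 0.0341) and -2.19 ± 0.39 in Het (adjusted p = 0.00458), and the difference of 0.46 between genotypes did not pass, with an interval from -0.78 to 1.71. Mx2 was dim on all GMP arrays, where 8.98% to 14.4% of the 19938 genes lay lower, and the filter on dim rows left it out, so the size of these falls is uncertain. Parp14, an ADP-ribosyltransferase, had log2 levels of 6.70 and 6.66 in KO GMP and 7.56 and 7.20 in KO LSK, against 6.30 and 6.17 in Het GMP and 7.38 in both Het LSK arrays. It was lower in GMP by -0.70 in KO (adjusted p = 0.0213) and -1.14 in Het (adjusted p = 0.000623). Xaf1 was the last of the 7, at -0.80 in KO (adjusted p = 0.0478) and -1.72 in Het (adjusted p = 0.000393).

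Irf7, Irf9 and Irf1, the transcription factors of the response, were called in Het and not in KO. Irf7 had log2 levels of 5.58 and 5.50 in KO GMP and 6.80 and 5.85 in KO LSK, against 4.83 and 4.61 in Het GMP and 6.76 and 6.49 in Het LSK. Irf9 had 6.72 and 6.56 in KO GMP and 7.05 and 6.80 in KO LSK, against 6.42 and 6.10 in Het GMP and 7.33 and 7.38 in Het LSK. Irf1 had 7.38 and 7.42 in KO GMP and 7.78 and 7.54 in KO LSK, against 6.84 and 7.15 in Het GMP and 7.94 and 8.13 in Het LSK. KO was thus above Het in GMP for all 3 genes on every array, and in KO the GMP arrays were below both LSK arrays. GMP minus LSK was -0.78 in KO and -1.90 in Het for Irf7, -0.29 in KO and -1.09 in Het for Irf9, and -0.26 in KO and -1.04 in Het for Irf1, and the differences between genotypes did not pass (adjusted p = 0.212, 0.103 and 0.118). A second row of Irf1, which is dimmer, gave -0.37 in KO and -1.14 in Het.

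Ifit1 had log2 levels of 5.12 and 3.99 in KO GMP and 5.71 and 5.36 in KO LSK, against 4.38 and 3.13 in Het GMP and 5.92 and 5.35 in Het LSK. Gaps within both GMP groups were wide, and the 2 contrasts share 1 SE. The difference of -0.98 ± 0.44 in KO was not called. That of -1.88 ± 0.44 in Het passed (adjusted p = 0.0187), but not without Het LSK replicate 1 or Het GMP replicate 2. Herc6 had log2 levels of 6.39 and 6.32 in KO GMP and 6.81 and 6.78 in KO LSK, against 5.95 and 5.91 in Het GMP and 7.12 and 6.89 in Het LSK. GMP minus LSK was -0.44 in KO (adjusted p = 0.0733) and -1.07 in Het (adjusted p = 0.000395). The called falls of 1 log2 unit or more in Het also include Rsad2 (-1.76), Usp18 (-1.55), Oas3 (-1.28), Zbp1 (-1.26), Irgm1 (-1.10) and Parp9 (-1.01).

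The LSK side of the genes that rose in KO GMP was as follows. Rsad2 had log2 levels of 6.65 and 5.64 in KO LSK, against 6.02 and 5.75 in Het LSK. Xaf1 had 7.75 and 7.10 in KO LSK, against 7.60 and 7.39 in Het LSK. The groups overlapped in both genes, and the gap between the KO LSK arrays was wider than the difference of the means. Irgm1 also overlapped, with 7.96 and 8.07 in KO LSK, against 8.002 and 8.198 in Het LSK. Oas3 had 6.38 and 6.33 in KO LSK, against 6.23 and 6.02 in Het LSK, a difference of 0.23 that did not pass (adjusted p = 0.553). Parp9, which fell in KO LSK, had 6.79 and 6.66 in KO GMP, against 6.56 and 6.52 in Het GMP, a difference of 0.19 that did not pass (adjusted p = 0.603).

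Smaller falls in Het passed for Tap1 (-0.95), Oasl1 (-0.87), Samhd1 (-0.67), Dtx3l (-0.56) and Nmi (-0.53), and leaving out Het LSK replicate 1 or Het GMP replicate 2 ended the call of each of the last 4 (adjusted p from 0.0562 to 0.189). Without Het GMP replicate 1 this also held for Samhd1 (0.0814), Dtx3l (0.0995) and Nmi (0.0833), and without Het LSK replicate 2 for Samhd1 (0.0635). In KO, leaving out KO GMP replicate 1 or 2 ended the calls of Oas2 (0.0644 and 0.124), Oasl2 (0.0553 and 0.0793), Mx2 (0.136 and 0.162), Xaf1 (0.175 and 0.210) and Parp14 (0.108 and 0.126), which left Rtp4 and Iigp1. Leaving out KO LSK replicate 1 ended those of Oas2 (0.0710), Xaf1 (0.120) and Parp14 (0.0757), leaving out either Het GMP array those of Mx2 (0.0648) and Xaf1 (0.0860), and leaving out either Het LSK array that of Xaf1 (0.0693).

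**Figure D4:**
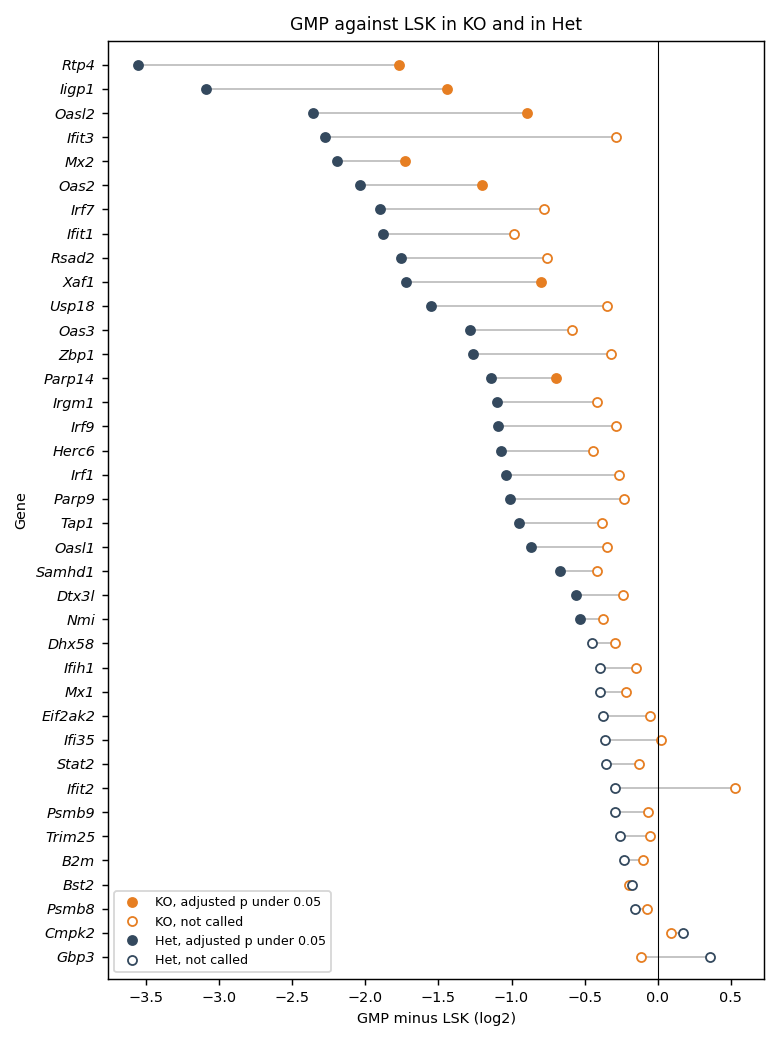
Log2 difference of GMP minus LSK for each of the 38 genes (rows) in KO (orange) and in Het (dark), with filled points for an adjusted p under 0.05. In Het 24 points are filled and in KO 7, and Rtp4 lies at -1.77 in KO and at -3.56 in Het.

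Across all 5 comparisons, 13 of the 38 genes were never called, and the share of all genes never called was not computed. They were Stat2, the sensors Ifih1, Dhx58 and Eif2ak2 and the RIG-I ligase Trim25, Ifit2, Mx1, Cmpk2, Bst2, Ifi35, the immunoproteasome subunits Psmb8 and Psmb9, and B2m, the light chain of class I molecules. Most of them were not dim: B2m had log2 levels of 11.8 on both KO GMP arrays and 11.6 on both Het GMP arrays, and Psmb9 had 10.4 and 10.5 in KO GMP, against 10.6 on both Het GMP arrays. Mx1, which is disrupted in most laboratory mouse strains, was the dimmest of the 13 at 3.04 to 3.33 in KO and 3.19 to 3.96 in Het.

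Other genes of the interferon pathway were taken from 6 lists by role, of which 79 of 92 genes had a row of their own. In LSK 3 of the 79 rose in KO and 14 fell, beside 3.02% and 4.71% of all rows. In GMP 13 rose and 5 fell, beside 3.45% and 2.57% of all rows, and 3 were called higher in GMP minus LSK, beside 1.69%. Of 7 interferon genes measured, Ifnb1, interferon beta, was called higher in KO LSK, at 3.07 and 3.48, against 2.55 and 2.66 in Het LSK (log2 difference 0.67, adjusted p = 0.0369), levels near the low end of the array. The receptor chains Ifnar1, Ifnar2, Ifngr1 and Ifngr2 were called in neither cell type, with log2 differences of -0.33 to 0.16 in LSK and -0.57 to -0.07 in GMP. Il10rb, a chain of the type III interferon and IL-10 receptors, rose in KO LSK by 0.48 (adjusted p = 0.0321), and the kinase Jak2 rose in KO GMP by 0.61 (adjusted p = 0.0183). Leaving out any 1 of the 8 arrays ended the call of Il10rb (adjusted p up to 0.146), 7 of the 8 that of Ifnb1 (up to 0.177) and any of the 4 GMP arrays that of Jak2 (up to 0.159).

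Irf8, a factor of monocyte and dendritic cell development, had log2 levels of 5.90 and 5.49 in KO LSK, against 7.29 and 7.01 in Het LSK, and 6.02 and 5.27 in KO GMP, against 8.28 and 8.49 in Het GMP. It was lower in KO in both cell types, by -1.45 in LSK (adjusted p = 0.00700, and 0.0609 without Het LSK replicate 1) and -2.74 in GMP (adjusted p = 0.000258). Irf5 fell in KO LSK by 0.80 (adjusted p = 0.00538), and Irf2, which opposes Irf1 at shared sites, rose in KO GMP by 0.85 (adjusted p = 0.0273). The negative regulator Socs3 rose in KO GMP by 0.96 (adjusted p = 0.0159), and the other 5 negative regulators were called in neither cell type. Socs3 was not called with the mean of its rows (adjusted p = 0.0647) or with all rows tested (0.0785). Without any 1 of the 4 GMP arrays, Irf2 and Socs3 were no longer called (0.0867 to 0.172).

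Sting1, the adaptor of cytosolic DNA sensing, had log2 levels of 6.25 and 6.56 in KO LSK, against 8.99 and 8.84 in Het LSK, and 5.88 and 5.81 in KO GMP, against 8.34 and 8.38 in Het GMP. Its log2 difference between KO and Het was -2.51 ± 0.14 in each cell type (adjusted p = 2.38e-05 in LSK and 2.78e-05 in GMP), and it was the 1 called fall among the upstream sensors and adaptors. Ddx58, the RNA sensor RIG-I, had log2 levels of 7.31 and 7.21 in KO GMP, against 6.23 and 6.04 in Het GMP, and 8.09 and 7.89 in KO LSK, against 7.99 and 8.07 in Het LSK. It rose in KO GMP by 1.12 (adjusted p = 0.00101), and its difference between the cell types was 1.16 (adjusted p = 0.0137), which 1 array less ended in 3 cases (0.0602 to 0.0709). Tlr7, an endosomal RNA receptor, rose in KO GMP by 1.18 (adjusted p = 0.00973, with 0.0948 without Het GMP replicate 1 and 0.0846 without KO GMP replicate 2).

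Of 42 further target genes, KO LSK had 11 lower and 1 higher than Het LSK, and KO GMP had 8 higher and 3 lower than Het GMP, to be read against the same shares of all rows. The largest falls in LSK were in the DNA sensor Aim2, at 5.58 and 5.21 in KO LSK, against 7.86 and 7.77 in Het LSK (-2.42, adjusted p = 0.00137), in Ifitm1, a membrane protein that restricts viral entry, at 9.44 and 9.76 in KO LSK, against 11.9 and 11.6 in Het LSK (-2.12, adjusted p = 0.000159), and in Ifi205 (-2.04, adjusted p = 0.00842, and 0.0547 without Het LSK replicate 2). Gbp9 was the 1 that rose in LSK (1.56, adjusted p = 0.0117, and 0.0939 without Het LSK replicate 2). In GMP the largest rises were in Gbp8 (1.21, adjusted p = 0.0122), Uba7, the enzyme that activates ISG15 (1.15, adjusted p = 0.00366), and Oas1b (1.09, adjusted p = 0.00433). Aim2 (-1.80, adjusted p = 0.00790), Ifitm1 (-0.95, adjusted p = 0.0151) and Ly6e (-0.66, adjusted p = 0.0103) fell in KO GMP. Calls in GMP were lost without either Het GMP array for Aim2 (0.0660 and 0.0606), without any GMP array for Ly6e (up to 0.0955), without any but Het GMP replicate 1 for Gbp8 (up to 0.0880) and without any but Het GMP replicate 2 for Ifitm1 (up to 0.126).

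**Figure D5:**
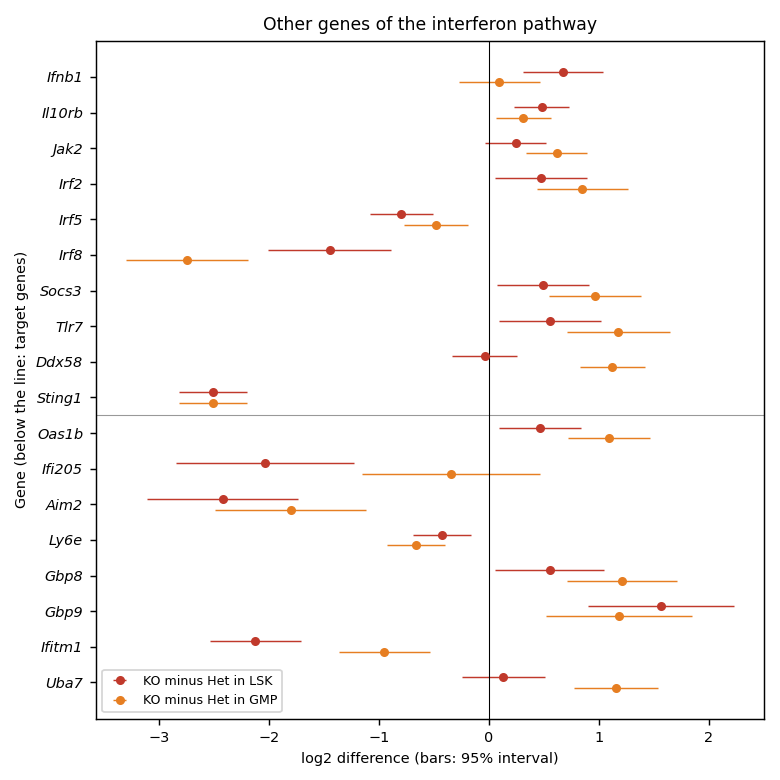
Log2 difference of KO minus Het in LSK (red) and in GMP (orange) for called genes of the pathway lists (rows), with 95% intervals as bars and target genes below the line. Of the target genes, only the 3 largest called changes per direction in each cell type are drawn. Sting1 lies at -2.51 in both cell types, Irf8 and Aim2 below 0 in both, and Ddx58 and Uba7 above 0 in GMP, with LSK values of -0.04 and 0.13.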

How the data were processed

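Sorted LSK and GMP cells of KO and Het mice were measured on 8 arrays, in 4 groups of 2 taken from the labels. The authors deposited log2 values made with RMA, per the submitters' processing notes, which give neither software nor version. RMA corrects the background, brings arrays to a common distribution and gives 1 value per transcript cluster, which compresses differences at the dim end. The number of arrays limits the precision. Of 35556 rows, 21789 carried exactly 1 gene symbol (19938 genes) and were tested. Rows with several symbols (1621) or none (12146) were left out.

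The values were used as deposited. Group means were fitted to all 8 arrays with limma 3.58.1 (lmFit and eBayes) in R 4.3.3, with 4 residual and 4.83 prior degrees of freedom. Adjustment was by Benjamini-Hochberg, across the 21789 rows at once, and a call is an adjusted p under 0.05. Errors are limma's SE, intervals are its 95% intervals, and tests are two-sided. A gene with several rows was read from its brightest row. KO was set against Het within each cell type, the 2 differences against each other, and GMP against LSK within each genotype. The fit was tested on simulated data.

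The members and all gene lists were chosen with earlier results of these data known. Members called in KO against Het or in the difference are given array by array, as are those called between GMP and LSK at 1 log2 unit or more. Other members are given by range and count. From the pathway lists, every called ligand, receptor, kinase, factor, regulator and sensor is named, and of other targets the 3 largest called changes per direction. Genes just outside the threshold, and others named beside these, were chosen after their values were seen. Promoters come from RefSeq's table of GRCm38.p6. Alternatives changed the rows tested, scaling, variance model, probe summary, filter on dim rows, minimum fold, samples fitted, replicate block and arrays left out.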

Additional observations from a re-analysis of the deposited data

Results flagged for a closer look

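For 9 interferon genes the effect of KO differed between GMP and LSK by the test of that difference (limma, Benjamini-Hochberg adjusted over all tested rows). Of the 38 response genes these were Ifit3 (GMP effect minus LSK effect 1.99 on the log2 scale, adjusted p = 0.00579), Rtp4 (1.79, 0.0252), Iigp1 (1.64, 0.0104), Oasl2 (1.46, 0.0104), Usp18 (1.20, 0.0284) and Zbp1 (0.94, 0.0211). Of the other pathway genes they were Ddx58 (1.16, 0.0137), Shisa5 (1.09, 0.0300) and Isg20 (1.07, 0.0164).

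Isg20, an RNA exonuclease, had log2 levels of 6.62 and 6.51 in KO GMP, against 6.09 and 6.21 in Het GMP, and 6.54 and 6.39 in KO LSK, against 7.19 and 7.05 in Het LSK. KO was below Het in LSK (-0.65, adjusted p = 0.0130) and, without passing the test, above it in GMP (0.42, adjusted p = 0.101). Shisa5 had log2 levels of 8.13 and 8.28 in KO GMP, against 8.23 and 8.07 in Het GMP, and 8.72 and 8.40 in KO LSK, against 9.54 and 9.64 in Het LSK. It differed in LSK (-1.03, adjusted p = 0.00255), while its GMP arrays overlapped. Leaving out 1 array took the adjusted p of the difference between cell types to as much as 0.0863 for Isg20 and 0.127 for Shisa5. Groups of 2 arrays are too small for a search for outlying arrays.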

How the results depend on the processing

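Of 5112 recomputed single-gene values, 0 reversed a called direction, 399 lost a call and 44 gained one, and 72 of 146 calls held whichever array was left out. Testing all 35556 rows left 3 of the 38 genes called in LSK, 3 in GMP, 1 in the difference between cell types and 3 for GMP against LSK in KO. A 2-fold minimum left 2 in LSK, 5 in GMP and 4 for GMP against LSK in KO, and fitting only the groups compared left 4 in the last. Leaving out 1 array gave 2 to 7 calls in LSK, 2 to 9 in GMP, 2 to 9 in the difference, 2 to 10 for GMP against LSK in KO and 19 to 24 in Het. Leaving the 2-fold minimum aside, calls kept under every alternative numbered 1 of 5 in LSK (Zbp1), 1 of 8 in GMP (Oasl2), 0 of 6 in the difference, 2 of 7 in KO (Rtp4 and Iigp1) and 17 of 24 in Het. The filter on dim rows left out Cmpk2, Ifit1, Ifit3, Mx1 and Mx2. Ifit3 in LSK, in the difference and in Het, and Mx2 in Het, kept their calls under the alternatives that tested them. Subtracting array medians moved all differences by 0.087 in LSK, -0.051 in GMP and 0.16 for GMP against LSK in Het. The medians over the 38 genes kept their signs under all alternatives. The cause of the lost calls was not tested.

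Replicate numbers recur in all groups, but the labels tie none to a mouse. Deviations from group means correlated at 0.179 between same-numbered arrays of KO LSK and KO GMP and at 0.133 in Het, and at -0.143 to -0.025 across genotypes. With the replicate block, 7 of the 38 genes were called in LSK (1 higher and 6 lower), 8 in GMP, 6 in the difference between cell types, 8 for GMP against LSK in KO and 25 in Het. Oas2 (adjusted p = 0.0279) and Gbp3 (0.00771) were then called in LSK, Iigp1 was called in GMP (0.0238) and Irgm1 not (0.0502), Ifit1 was called for GMP against LSK in KO (0.0409) and Dhx58 in Het (0.0370). A block within genotype, chosen after seeing the data, gave 6, 8, 6, 8 and 25 in the same order.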
